A study of Canis lupus familiaris with 5 samples.

Results

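Transcripts of 6 genes better known from connective tissue and smooth muscle (FN1, SPARC, HAPLN1, VIM, ACTA2 and CAPN2) were examined in 5 canine lymphoid cell lines. They were represented by every array probe set annotated to one of these symbols and to no other gene, which gave 12 of the 42924 probe sets that are not controls and 6 of 15115 genes. The lines were 17-71, labelled as a B-lymphoid malignancy, and GL-1, a B-cell leukemia (together B-labelled, n = 2 lines). The T-labelled lines (n = 3) were CL-1, a primitive a/b T-cell leukemia, CLGL-90, an LGL leukemia of T cells, and CLL-1390, a primitive T-cell leukemia. All 5 were untreated and grown in the same medium with serum, and each was measured once, so neither a p-value nor an SD can be given for a single line. The 6 genes were chosen by their log2 values in these lines, which differ widely, and their levels are therefore given as a description without a test.

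Fibronectin (FN1), osteonectin (SPARC) and the hyaluronan and proteoglycan link protein (HAPLN1) are secreted proteins of the extracellular matrix. Cells bind fibronectin through integrins, whereas link protein fastens proteoglycans such as versican and aggrecan to hyaluronan. Vimentin (VIM) is the intermediate filament of mesenchymal cells and also of blood cells, ACTA2 is the actin of smooth muscle and myofibroblasts, and CAPN2 is the catalytic subunit of calpain-2, a calcium-dependent protease that cuts cytoskeletal and adhesion proteins. Lymphocytes normally receive fibronectin from the surrounding stroma, and carry integrins and CD44 as receptors for matrix.

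Values are log2 intensities. Array medians ran from 6.87 to 6.996, and the 59 control probe sets for sequences that dogs lack served as a guide to background, with a highest value per array of 6.39 to 6.76. A difference that starts under these controls has a size that depends on background. Levels of different probe sets are not compared with each other, since each binds with its own strength.

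FN1 was highest in CL-1 on all 4 of its probe sets. Probe set Cfa.3707.3.S1_s_at read 12.58 in CL-1, against 4.84 in 17-71, 4.91 in GL-1, 5.01 in CLGL-90 and 5.22 in CLL-1390. The other 4 lines thus lay within 0.38 of each other and under the controls, and CL-1 stood 7.36 above the nearest of them, or 5.82 above the highest control. Probe set Cfa.3707.1.A1_s_at read 10.78 in CL-1, against 5.68 in 17-71, 5.56 in GL-1, 5.30 in CLGL-90 and 5.59 in CLL-1390. Probe set Cfa.3707.1.A1_at separated the lines less, with 9.31 in CL-1, against 7.49 in 17-71, 7.43 in GL-1, 7.85 in CLGL-90 and 7.71 in CLL-1390. In these bulk cultures, fewer cells with a transcript and less of it per cell cannot be told apart.

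The 4 FN1 probe sets disagreed on CLL-1390. Probe set Cfa.3707.2.S1_at read 14.01 in CL-1 and 11.002 in CLL-1390, against 7.24 in GL-1, 5.34 in 17-71 and 4.66 in CLGL-90. On this probe set CL-1 and CLL-1390 both stood apart, and the widest gap, 3.76, lay between CLL-1390 and GL-1. On the other 3 probe sets CLL-1390 lay within 0.21 of its nearest other line, excluding CL-1, and it was under the controls on 2 of them. Which part of the transcript each probe set reads was not analysed here, so a high FN1 level in CL-1 rests on 4 probe sets and one in CLL-1390 on 1.

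**Figure D1:**
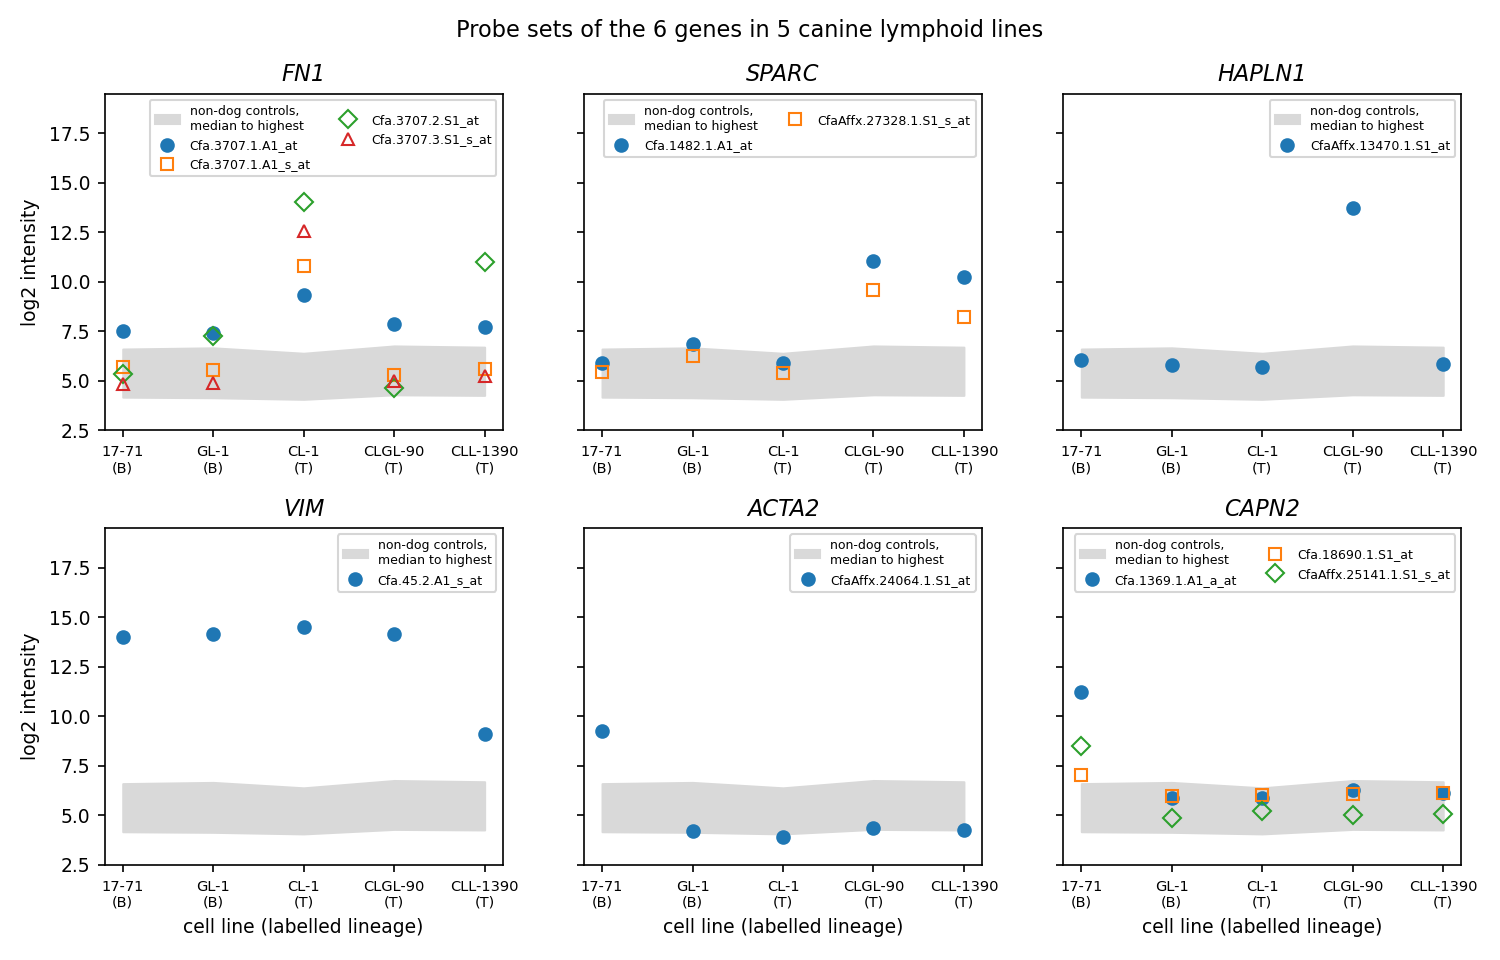
Log2 intensity (y axis) of every probe set of the 6 genes in each of the 5 lines (x axis, labelled lineage in brackets); each symbol is 1 probe set on 1 array, and the grey band runs from the median to the highest non-dog control. FN1 is highest in CL-1, SPARC in CLGL-90 and CLL-1390, HAPLN1 in CLGL-90, ACTA2 and CAPN2 in 17-71, and VIM is lowest in CLL-1390.

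SPARC, a calcium-binding protein that modulates how cells attach to matrix, was high in 2 of the T-labelled lines. Probe set Cfa.1482.1.A1_at read 11.02 in CLGL-90 and 10.24 in CLL-1390, against 6.86 in GL-1, 5.897 in CL-1 and 5.88 in 17-71. Both high lines stood at least 3.38 above the others, among which GL-1 lay just above its highest control (6.66). Probe set CfaAffx.27328.1.S1_s_at gave the same order of the 3 highest lines, with 9.58 in CLGL-90 and 8.21 in CLL-1390, against 6.23 in GL-1, 5.46 in 17-71 and 5.38 in CL-1. There the widest gap was 1.98. CL-1, the third T-labelled line, was as low as 17-71 on both probe sets.

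HAPLN1 was high in CLGL-90 and in no other line. Its single probe set, CfaAffx.13470.1.S1_at, read 13.698 in CLGL-90, against 6.03 in 17-71, 5.87 in CLL-1390, 5.80 in GL-1 and 5.68 in CL-1. The gap of 7.67 was 7.001 when the other lines were raised to their highest control. With 1 probe set, no second reading of the gene was available.

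VIM separated a single line downwards. Its only probe set, Cfa.45.2.A1_s_at, read 9.11 in CLL-1390, against 14.48 in CL-1, 14.15 in CLGL-90, 14.14 in GL-1 and 14.02 in 17-71. The 4 high lines spanned 0.46, and CLL-1390 lay 4.91 below the lowest of them. Every value of VIM, including that of CLL-1390, was above the controls, so this gap does not depend on the background floor.

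ACTA2 was high in 17-71. Its own probe set, CfaAffx.24064.1.S1_at, read 9.25 in 17-71, against 4.35 in CLGL-90, 4.26 in CLL-1390, 4.196 in GL-1 and 3.92 in CL-1. The gap of 4.91 shrank to 2.49 above the highest control, since all other lines were near the median of the controls. Actins are alike in sequence, and whether this probe set tells ACTA2 from its relatives was not analysed here. In 17-71, the probe sets that represent ACTA1 (7.08) and ACTG2 (8.05), the skeletal and enteric muscle actins, were within the span of the other lines (6.72 to 7.15 and 7.73 to 8.27). Each is 1 of 3 probe sets of its gene and was flat, so no line shows that it responds. A probe set annotated to both ACTA1 and ACTA2 was also highest in 17-71 (7.93, against 5.28 to 6.13).

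CAPN2 was also highest in 17-71, on all 3 of its probe sets. Probe set Cfa.1369.1.A1_a_at read 11.21 in 17-71, against 6.27 in CLGL-90, 6.13 in CLL-1390, 5.90 in GL-1 and 5.89 in CL-1. Probe set CfaAffx.25141.1.S1_s_at read 8.502 in 17-71, against 5.25 in CL-1, 5.07 in CLL-1390, 5.04 in CLGL-90 and 4.89 in GL-1. The third, Cfa.18690.1.S1_at, read 7.05 in 17-71, against 5.98 to 6.14 in the other lines. The gaps of the 3 probe sets were 4.94, 3.26 and 0.91, and outside 17-71 every CAPN2 value lay within the range of the controls.

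**Figure D2:**
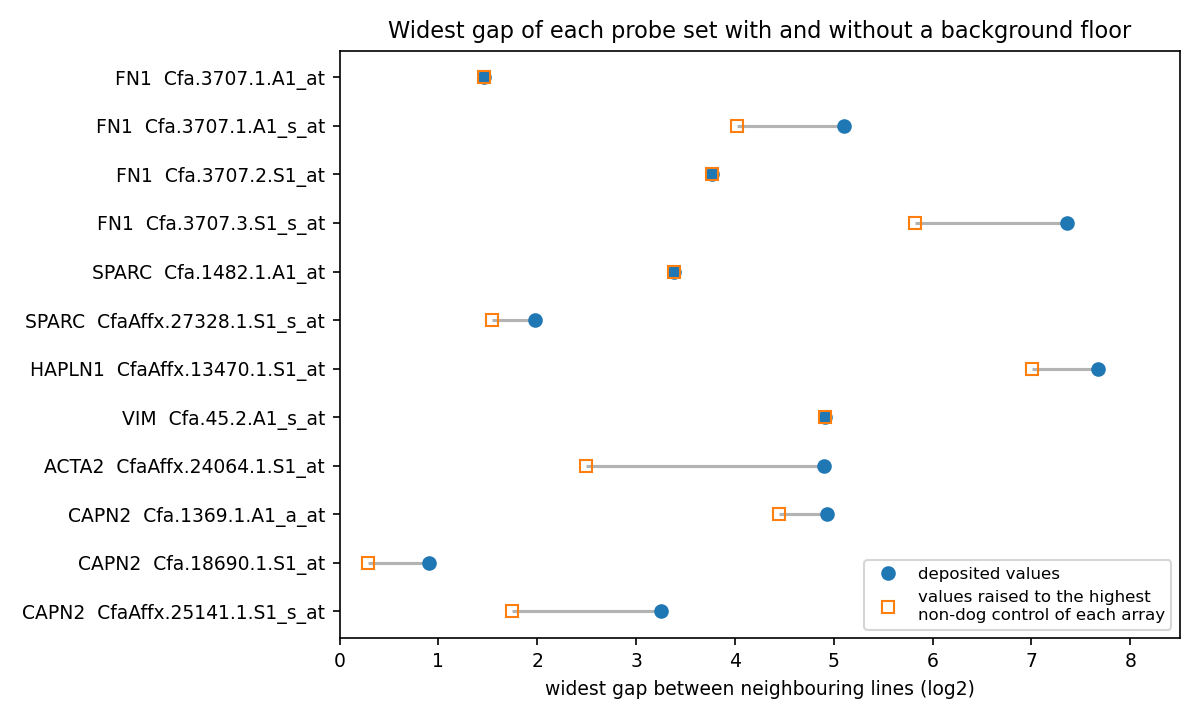
Widest gap between neighbouring lines (x axis, log2) for each of the 12 probe sets (y axis); circles show the deposited values, squares the same after raising every value to the array's highest non-dog control. The gap of HAPLN1 goes to 7.001 with the floor, that of ACTA2 to 2.49, and that of VIM stays at 4.91.

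By leading line, CL-1 was highest on 5 of the 12 probe sets (4 of FN1 and that of VIM), 17-71 on 4 (ACTA2 and CAPN2) and CLGL-90 on 3 (SPARC and HAPLN1). GL-1 and CLL-1390 led none. A range of log2 2 or more, with a value above the controls in a line, was found in 10 of the 12. The share over all 42924 probe sets was 12.5%. The genes were chosen for such ranges, and nothing is read from this count. No line was high in all of the genes, and FN1, SPARC and HAPLN1, the 3 secreted matrix proteins, were together high in none.

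By labelled lineage, the 6 genes differed among lines that share a label. FN1 on Cfa.3707.3.S1_s_at averaged 4.88 ± 0.053 in the B-labelled lines (SD, n = 2) and 7.605 ± 4.31 in the T-labelled lines (SD, n = 3), since CL-1 read 12.58 and the other T-labelled lines 5.01 and 5.22. SPARC on Cfa.1482.1.A1_at averaged 6.37 ± 0.69 in the B-labelled lines and 9.05 ± 2.76 in the T-labelled lines, and its T-labelled lines lay on both sides of GL-1. These means describe genes picked for their values in the same 5 lines, and no lineage test is given for them.

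Other genes of the same families, taken by family, were read in 10 lists of 199 genes, of which 187 were on the array. The lists were chosen with earlier results of these data known, so their shares beside those of all genes are a description. B-labelled lines were compared with T-labelled lines by limma, in which 5 of 36661 probe sets passed an adjusted p of 0.05 (0.0136%; 3.72% had an unadjusted p under 0.05). Taken by gene, 165 of the list genes were tested and 0 passed over all genes, where 0.00706% of 14162 genes passed (1 gene); at an unadjusted p under 0.05 the numbers were 2 of 165 and 3.52% of all genes. The median difference, B-labelled minus T-labelled, was -0.014 over the lists and -0.027 over all genes. B-labelled and T-labelled lines did not overlap in 22 of the 165 (13.3%), against 15.4% of all genes. Over the 5 lines, 35 of 187 (18.7%) had a range of log2 2 or more with a value above the controls, against 13.5% of all genes.

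**Figure D3:**
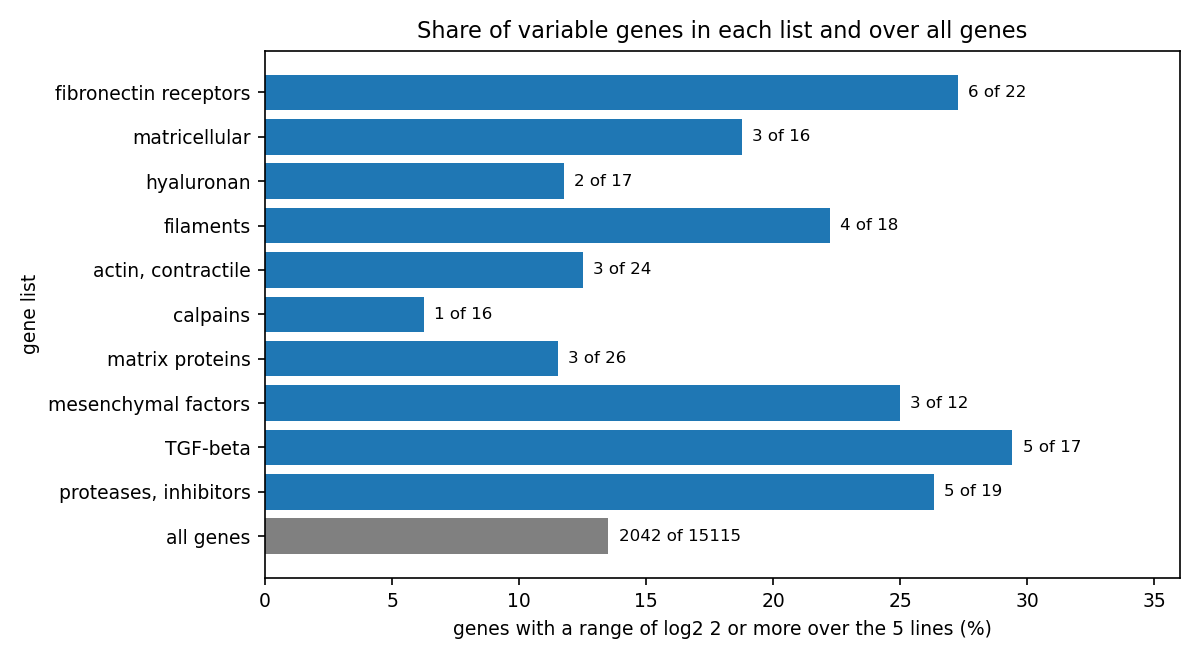
Percentage of genes on the array (x axis) whose values span log2 2 or more over the 5 lines and pass the non-dog controls in a line, for each list (y axis, blue) and for all genes (grey), with the counts beside the bars. The shares run from 6.25% of calpain genes to 29.4% of TGF-beta pathway genes, against 13.5% of all genes.

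Among fibronectin receptors and partners 6 of 22 genes had such a range. ITGB1, the beta-1 integrin chain of the classical fibronectin receptor, read 11.80 in GL-1, 10.57 in 17-71 and 10.47 in CLL-1390, and was lower in CL-1 at 7.77 and in CLGL-90 at 7.67. The FN1-high line CL-1 was thus among the lines of low ITGB1, but the other ITGB1 probe set ran the opposite way, with 7.23 in CL-1, the only value above its control, against 5.97 to 6.38 in the other lines. ITGA4, the alpha chain of the VLA-4 receptor on lymphocytes, read 10.13 in CLL-1390, 9.19 in GL-1 and 7.97 in CL-1, against 5.97 in CLGL-90 and 5.41 in 17-71. ITGAV, an alpha chain of vitronectin and fibronectin receptors, was highest in 17-71 at 10.64 and lowest in CLGL-90 at 6.52, and 2 of its 5 probe sets put 17-71 apart in this way.

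Of the SPARC family and other matricellular proteins, 3 of 16 genes had such a range. SMOC2, a secreted relative of SPARC, read 10.42 in CL-1 and 9.12 in CLL-1390, against 6.77 in GL-1, 6.60 in CLGL-90 and 5.99 in 17-71. These are the same 2 lines that stood apart on FN1 probe set Cfa.3707.2.S1_at. SMOC2 had 2 of 5 probe sets with this split, and SPARC itself was low in CL-1. FSTL1, a follistatin-like glycoprotein, read 9.66 in GL-1, 8.76 in CL-1 and 8.52 in CLL-1390, against 6.54 in CLGL-90 and 6.53 in 17-71. The 4 probe sets of SMOC1, another relative, disagreed. That of highest mean spanned 7.75 to 8.35, and 1 other read 7.05 in CL-1, above its control, against 3.66 to 3.81 in the other lines.

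In the hyaluronan list 2 of 17 genes had such a range. CD44, the main hyaluronan receptor of leukocytes, read 6.59 in CLGL-90, against 9.19 in CLL-1390, 9.62 in 17-71, 11.07 in GL-1 and 11.84 in CL-1. The HAPLN1-high line CLGL-90 was thus the line of lowest CD44 on this probe set, under its highest control; 1 of the other 2 CD44 probe sets gave the same split, and on the third CLL-1390 was lowest. VCAN, versican, was highest in GL-1 at 7.94, against 5.46 to 5.86 in the other lines. The other link protein genes, HAPLN2 (7.26 to 7.54) and HAPLN3 (7.33 to 7.98), varied little. HMMR, a hyaluronan-binding protein of dividing cells, spanned 7.76 in CLGL-90 to 9.54 in CL-1, and HYAL2, a hyaluronidase, 7.41 to 8.09.

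Among intermediate filaments and their partners 4 of 18 genes had such a range. KRT18, a keratin of simple epithelia, read 11.55 in CLGL-90 and 9.40 in 17-71, against 5.83 to 6.26 in GL-1, CL-1 and CLL-1390, and its 2 probe sets agreed on this split. Its usual partner KRT8 was represented by a probe set at 2.98 to 3.33 in every line, so no line shows that it responds. NEFL, a neurofilament chain, read 11.24 in CLGL-90 and 10.78 in CL-1, against 5.84 to 6.002 in 17-71, GL-1 and CLL-1390. LMNA, which encodes the nuclear lamins A and C, read 11.84 in 17-71, against 8.503 in CLGL-90, 7.76 in CLL-1390, 7.40 in CL-1 and 7.07 in GL-1. CLL-1390, the line of low VIM, was not the highest line for any of these 3 filament genes.

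**Figure D4:**
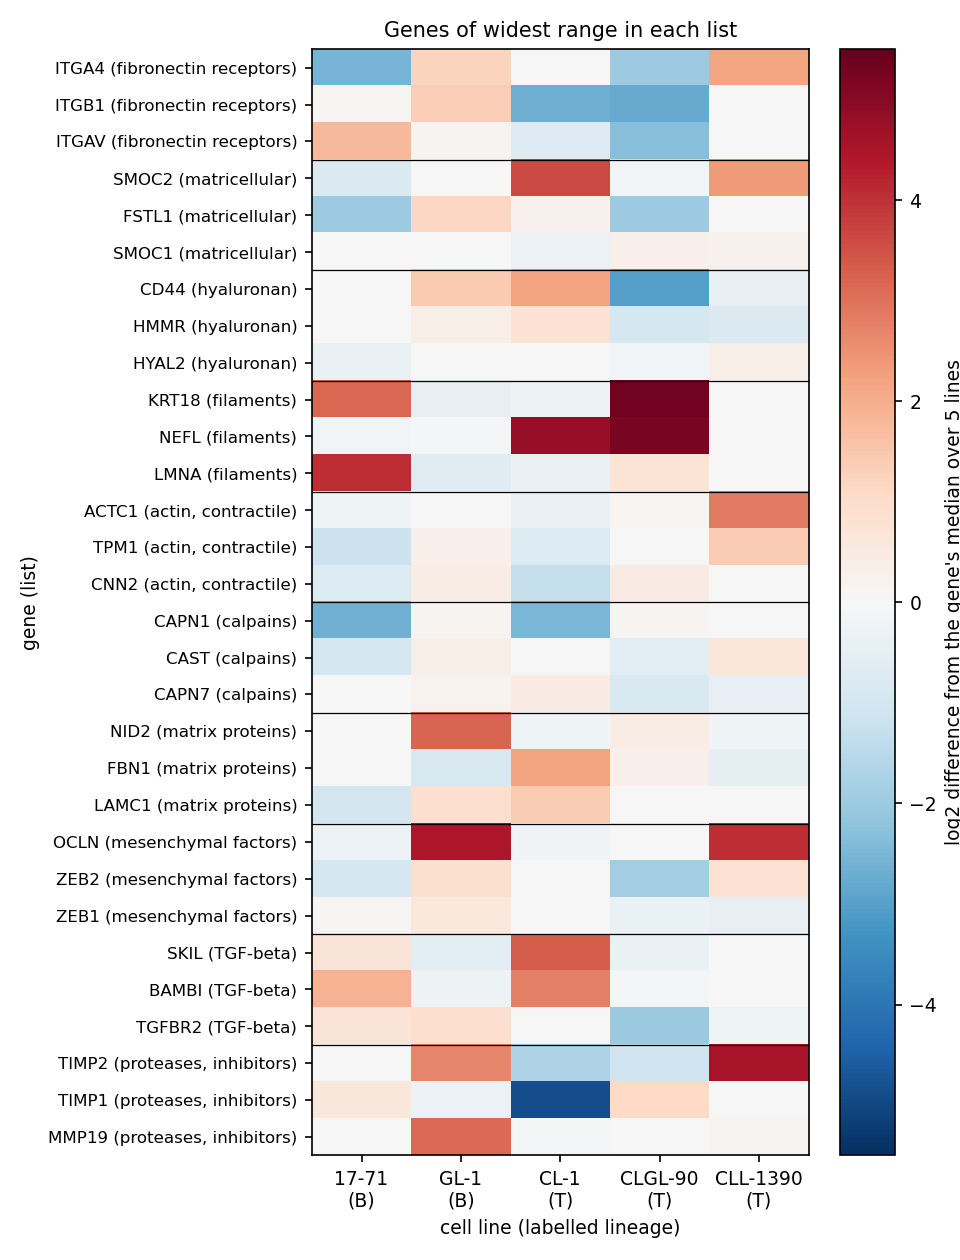
Log2 difference from each gene's own median over the 5 lines (colour scale) for the 3 genes of widest range in each list among those reaching log2 8 (rows), by line (columns, labelled lineage in brackets). KRT18 is raised in CLGL-90 and 17-71, NEFL in CLGL-90 and CL-1, LMNA in 17-71, ACTC1 in CLL-1390 and SKIL in CL-1, and TIMP1 is low in CL-1.

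Of the actin and contractile genes 3 of 24 had such a range. ACTC1, cardiac actin, was high in CLL-1390, at 10.39 against 7.18 to 7.62 in the other lines, and more so on its second probe set, at 12.61 against 4.43 to 4.90. ACTA2 and ACTC1 thus led in different lines, 17-71 and CLL-1390. TPM1, a tropomyosin, was also highest in CLL-1390 (12.78, against 10.21 to 11.68), and 2 of its 4 probe sets put CLL-1390 apart. CNN2, a calponin, spanned 8.88 in CL-1 to 10.63 in CLGL-90. The smooth muscle genes TAGLN (7.99 to 8.85), MYH11 (6.07 to 6.44), CNN1 (5.84 to 6.37) and MYL9 (4.37 to 5.00) varied by less than log2 1. On the probe set that represents it (1 of 3), TAGLN lay above the controls in every line. In 17-71 it read 8.67, within the span of the other lines. MYH11, CNN1 and MYL9 lay under the controls in every line. Whether the probe sets of these smooth muscle genes can detect their transcripts was not tested. Their flat values therefore cannot tell whether these genes accompany ACTA2.

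Among the other calpain genes 1 of 16 had such a range. CAPN1, the catalytic subunit of calpain-1, read 7.52 in 17-71 and 7.63 in CL-1, against 10.16 in CLL-1390, 10.29 in CLGL-90 and 10.296 in GL-1, and 3 of 4 probe sets gave this split. The line with high CAPN2, 17-71, was thus 1 of the 2 lines with low CAPN1. CAPNS1, the small subunit that both calpains share, was 12.04 in 17-71 and 12.31 to 13.12 in the other lines. CAST, the calpain inhibitor calpastatin, was lowest in 17-71 at 8.90, against 9.28 to 10.555 in the other lines. CAPN7 spanned 8.07 in CLGL-90 to 9.38 in CL-1.

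Collagens and other matrix proteins were mostly flat, with such a range in 3 of 26 genes and a median range of 0.58 (0.73 over all genes). NID2, a basement membrane nidogen, was high in GL-1 (8.38, against 4.90 to 5.58) and agreed on both probe sets. FBN1, fibrillin, was highest in CL-1 (8.18, against 5.07 to 6.22), and 2 of its 4 probe sets put CL-1 apart. LAMC1, a laminin chain, spanned 6.48 in 17-71 to 8.90 in CL-1. The fibrillar collagen genes COL1A1 (5.15 to 5.83), COL1A2 (6.26 to 7.12) and COL3A1 (6.47 to 6.89) varied by less than log2 1, and COL1A1 lay under the controls in every line.

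Mesenchymal transcription factors and junction genes had such a range in 3 of 12. OCLN, a tight junction protein, read 11.37 in CLL-1390 and 11.72 in GL-1, against 6.97 to 7.29 in 17-71, CL-1 and CLGL-90, on both probe sets. CDH2, the N-cadherin of mesenchymal and neural cells, read 7.64 in CL-1, the line of high FN1, against 5.38 to 5.78 in the other lines, a split found on 1 of its 2 probe sets. The third was ZEB2, which spanned 5.37 in CLGL-90 to 8.16 in GL-1, while ZEB1 varied less, from 10.26 in CLL-1390 to 11.26 in GL-1; both are repressors of epithelial genes that blood cells also use. TWIST1, a transcription factor of mesenchymal cells, had a narrower range and was also highest in CL-1, at 6.74 against 5.01 to 5.73. CL-1 was the only line above its control. SNAI1, another such factor, was instead lowest in CL-1, at 8.35 against 8.66 to 8.69 in the other lines. TWIST2 (4.20 in CL-1, against 4.42 to 4.87) and SNAI2 (3.12 to 3.25) lay under the controls in every line. In the TGF-beta list 5 of 17 genes had a range of log2 2 or more with a value above the controls. SKIL, a repressor of SMAD signalling, read 8.195 in CL-1, against 4.25 to 5.57 in the other lines. BAMBI, a decoy receptor, read 8.604 in CL-1 and 7.72 in 17-71, against 5.54 to 5.82 in GL-1, CLGL-90 and CLL-1390, and TGFBR2, the type II receptor, was lowest in CLGL-90 (7.204, against 8.998 to 10.16).

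Matrix proteases and their inhibitors had such a range in 5 of 19 genes. TIMP1, an inhibitor of metalloproteinases, read 6.13 in CL-1, against 10.69 in GL-1, 11.01 in CLL-1390, 11.64 in 17-71 and 12.13 in CLGL-90. The FN1-high line therefore had the lowest TIMP1, under its highest control. TIMP2 read 11.99 in CLL-1390 and 10.16 in GL-1, against 7.46 in 17-71, 6.35 in CLGL-90 and 5.78 in CL-1. MMP19, a metalloproteinase, was high in GL-1 (8.70, against 5.47 to 5.74). A single line stood at least log2 2 above every other in 7 of the 187 list genes (3.74%), against 3.08% of all genes. These were LMNA in 17-71, VCAN, NID2 and MMP19 in GL-1, SKIL in CL-1, KRT18 in CLGL-90 and ACTC1 in CLL-1390.

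Markers of the cells that usually make these proteins were read beside them. Of 12 fibroblast markers on the array, 4 to 6 exceeded the highest control of their array in a line, and 10 of the 12 varied by less than log2 1. The mean of the fibroblast list was 6.05 in CL-1, the line of high FN1, and 6.26 to 6.83 in the other lines; the array of CL-1 also had the lowest median (6.87) and the lowest value of the highest control (6.39). COL1A1, DCN, LUM, PDGFRA and POSTN lay under the controls in all 5 lines. The exceptions were THY1, a surface protein that canine T cells carry too, at 11.19 in CLGL-90, 9.98 in CLL-1390 and 9.28 in GL-1, against 5.93 in 17-71 and 5.61 in CL-1, and DDR2, a collagen receptor, at 8.16 in GL-1 against 5.81 to 6.46. THY1 was thus high in both SPARC-high lines and also in GL-1. Of 8 smooth muscle and pericyte markers, 3 exceeded the controls in every line and 0 varied by log2 1 or more; the mean of that list was 6.49 in 17-71, the line of high ACTA2, and 6.28 to 6.64 in the others. The part of such cells in the values was not tested beyond these levels.

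Lymphoid identity was read in the same way. PTPRC, the common leukocyte antigen CD45, read 9.91 in 17-71, 10.79 in GL-1, 11.11 in CL-1, 10.16 in CLGL-90 and 8.88 in CLL-1390, and 6 to 8 of 8 general lymphoid markers exceeded the controls in each line. Of 8 B-lineage markers, 3 exceeded the controls in each of 17-71 and GL-1, and 1 to 3 in the T-labelled lines. Of 9 T-lineage markers, 3 exceeded them in 17-71 and 6 in GL-1, against 4 in CL-1, 9 in CLGL-90 and 6 in CLL-1390. CLGL-90 was thus the only line in which every marker of its labelled lineage on the array exceeded the controls. These counts include CD5 (7.52 to 8.04) and PAX5 (6.83 to 7.18), which were flat above the controls in every line. CD3E also exceeded the controls in every line, with 8.13 in 17-71 and 10.24 in CLGL-90. Among T-lineage markers, B-labelled GL-1 read 9.78 for CD3D, 10.01 for CD3G and 10.65 for LCK. B-labelled 17-71 read 11.42 for CD2. Endothelial (6.298 to 6.81), epithelial (5.06 to 6.36) and platelet lists (6.16 to 6.63) had means near or under the controls in every line, and the myeloid mean was 8.14 to 8.67 in the B-labelled lines and 5.74 to 6.001 in the T-labelled ones. Of 10 myeloid markers, 17-71 had 8 above the controls, GL-1 had 6 and each T-labelled line had 3 or 4. LYZ, lysozyme, was high in both B-labelled lines (17-71 at 12.39, GL-1 at 12.01) and far under the controls elsewhere, at 3.28 to 4.02. It was the 1 gene that passed the lineage comparison (limma adjusted p = 0.0227). S100A9 (11.22 in 17-71 and 10.32 in GL-1, against 4.28 to 4.55) was likewise high in both B-labelled lines. So were S100A8 (8.64 and 8.59, against 4.52 to 4.98) and SPI1 (9.45 and 8.94, against 5.21 to 5.51). CD68, a lysosomal protein of macrophages, read 11.76 in 17-71, against 6.91 to 7.73 in the other lines. CD68 was thus highest in the line in which ACTA2 and CAPN2 led. There CSF1R (6.53) lay just under the highest control (6.60), and MPO (5.38) lay under it. The part of myeloid expression in these results was not tested.

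**Figure D5:**
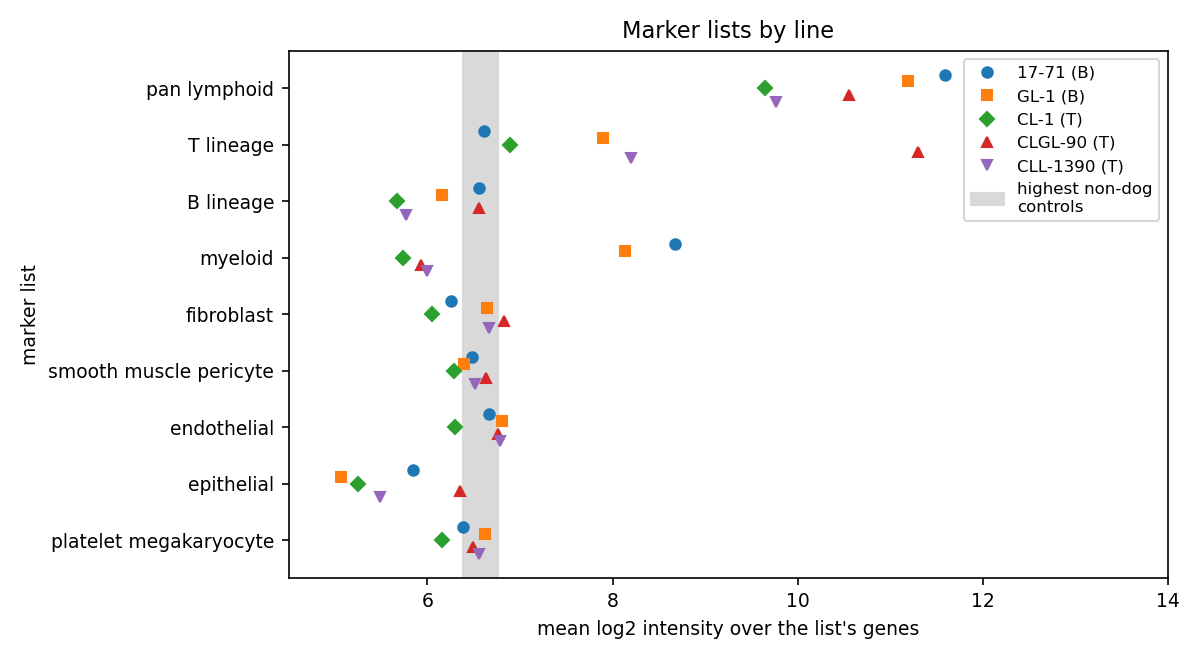
Mean log2 intensity (x axis) over the genes of each marker list (y axis) in the 5 lines (symbols); the grey band spans the highest non-dog controls of the arrays. General lymphoid lists lie between 9.64 and 11.59, and fibroblast and smooth muscle lists between 6.05 and 6.83 in every line.

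For each of the 6 genes, the 3 other genes with the most similar profile were sought among 2060 genes with a range of log2 2 or more. Likeness was the root mean square distance between profiles centred on their own mean, over 5 lines, each of which is 1 array that all genes share. ACTA2, HAPLN1 and CAPN2, on the probe sets used here, exceeded the controls in 1 line each. Their distances therefore rest largely on the height of 1 value. Of all 15115 genes, 112 stood at least log2 2 above every other line in 17-71. Shared regulation was not tested. ACTA2 was nearest to TINAGL1, a secreted matrix glycoprotein (distance 0.060), CCR6, a chemokine receptor (0.098), and SERPINB2, an inhibitor of plasminogen activators (0.125). TINAGL1 read 10.94 in 17-71, against 5.70 to 6.03 in the other lines, and it was also nearest to CAPN2 (0.089), followed by LOC478001 (0.096) and CCR6 (0.099). HAPLN1 was nearest to KCNIP4, which encodes a potassium channel partner (0.178), LOC475935 (0.251) and TRAT1, an adaptor of the T-cell receptor (0.265).

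SPARC was nearest to FADS1, a fatty acid desaturase (0.47), which read 12.40 in CLGL-90 and 10.77 in CLL-1390, against 6.36 to 6.76 in the other lines. GPR18 (0.66) and ARMC12 (0.696) followed. VIM was nearest to GCAT, an enzyme of threonine breakdown (0.31), at 6.75 in CLL-1390 against 11.004 to 11.88, then HMGB3 (0.43), a chromatin protein, and ALDH3A2 (0.55), a fatty aldehyde dehydrogenase. FN1, taken as Cfa.3707.2.S1_at, its probe set of widest range, had larger distances to its nearest genes than the other members had. Distances are in log2 and can grow with the range, which was the widest of the members here (9.35). On the other FN1 probe sets CLL-1390 did not stand apart, and genes near those were not sought. The nearest were BEX4 (1.62), at 11.95 in CL-1 and 10.93 in CLL-1390 against 4.74 to 6.399, MGLL (1.71), a monoglyceride lipase, and GNAI1 (1.86), a G protein subunit. Both probe sets of BEX4 and of GNAI1 had high values in CL-1 and CLL-1390.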

How the data were processed

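Total RNA of each line was hybridised to 1 Affymetrix canine array. Values were deposited as log2 intensities, 1 for each probe set, which the authors made with GCRMA (background correction, normalization and summary), per the submitters' processing notes; for its version and filters, the sources used here give nothing. Of 43035 probe sets, 111 controls were left out; 29254 of the rest had 1 gene symbol, 439 had several and 13231 had none. Gene IDs of 94.6% of the named ones matched the reference gene table. The probe set with the highest mean stood for its gene. The B-labelled and the T-labelled groups were set against each other with limma (version 3.58.1, R 4.3.3) over probe sets at log2 5 or more on at least 2 arrays, two-sided, with Benjamini-Hochberg adjustment, and the script was tested on simulated data. Since replicates are different lines with 1 array each, p-values measure the spread between lines, and the number of arrays limits precision. Named genes were the 6 members, the 3 of widest range per list among those reaching log2 8, and the 3 most similar per member; genes added to them were chosen after their values were seen. The members and lists were chosen with earlier results of these data known. The alternatives tried were other filters, normalizations, background floors, priors, groupings, left-out lines and choices of probe set.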

Additional observations from a re-analysis of the deposited data

Results flagged for a closer look

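A probe set annotated to both ACTA1 and ACTA2 entered no comparison, and it exceeded the highest non-dog control in 17-71 alone. It read 7.93 in 17-71, against 6.13 in CLGL-90, 5.81 in GL-1, 5.74 in CL-1 and 5.28 in CLL-1390. The line that led was the one that led on the probe set of ACTA2, and which of the 2 genes it reads was not tested.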

How the results depend on the processing

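The leading line of each of the 6 genes was the same under every alternative run, and no gap changed sign. A floor under the leading value cannot change which line leads. HAPLN1, VIM and ACTA2 have 1 probe set each, so no other choice of probe set could be tried for them. Raising values to the highest non-dog control lowered the gap of HAPLN1 in CLGL-90 to 7.001, of ACTA2 in 17-71 to 2.49 and of CAPN2 in 17-71 to 4.45. With the mean of all probe sets of a gene, the gap of CAPN2 was 3.11, that between the SPARC-high lines and the rest 2.68, and that of CL-1 and CLL-1390 in FN1 1.097. Passing probe sets in the lineage comparison numbered 5; they were 3 with centred arrays, 3 without a filter, 14 with the filter at log2 7, 15 with an intensity trend and robust prior, 0 with CLGL-90 set apart from the T-labelled lines, and 0 without any 1 line (0 to 0; 1186 to 2108 at an unadjusted p under 0.05). List genes that passed by limma were 0 under all alternatives run (1 to 7 at an unadjusted p under 0.05). List genes at least log2 2 above every other line numbered 1 in each of 17-71, CL-1, CLGL-90 and CLL-1390, and 3 in GL-1. At log2 1 they were 5 in 17-71, 6 in CL-1, 3 in CLGL-90 and 6 in CLL-1390. With the probe set of widest range they were 2 in 17-71 and 5 in CL-1, and with centred arrays 2 in CL-1. No paired analysis was possible because each array is of a different line and the labels pair none of them. With 1 array per line, values near the controls have no order.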

Other observations

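Outside the genes described so far, SPP1, the secreted matrix protein osteopontin, and MYH9, non-muscle myosin, had the lowest unadjusted p of the list genes in the lineage comparison, and neither passed limma's adjusted threshold (adjusted p = 0.99995 for both). SPP1 read 3.67 in 17-71 and 3.82 in GL-1, against 6.67 in CL-1, 5.29 in CLGL-90 and 7.10 in CLL-1390. Values of both B-labelled lines, and that of CLGL-90 (highest control 6.76), lay under the controls. The difference of -2.61 (SE 0.58, lower in 2 of 2 B-labelled lines) therefore depends on background. This split was found on 1 of the 2 probe sets of SPP1. MYH9 differed by 0.67 (SE 0.22). CNN3, a calponin, read 7.88 in CLL-1390, against 4.11 to 6.25 in the other lines, and both of its probe sets put CLL-1390 apart; this is the line in which ACTC1 and TPM1 were also highest. These genes were named after their values were seen.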
